A study of Danio rerio with 6 samples.

Results

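The genes described here are 10 genes of the Notch pathway in zebrafish. They are the 4 receptor genes NOTCH1 (ENSDARG00000052094), NOTCH1 (ENSDARG00000103554), notch2 (ENSDARG00000043130) and NOTCH3 (ENSDARG00000052139), the 5 ligand genes dll4 (ENSDARG00000070425), dlc (ENSDARG00000002336), jag1a (ENSDARG00000030289), jag1b (ENSDARG00000013168) and jag2a (ENSDARG00000014246), and the fringe gene LFNG (ENSDARG00000037879). They were taken by gene ID from count tables of 32520 genes. The rule itself uses no measured value, but the genes were chosen with earlier results of these data known. The name table used gives both NOTCH1 copies the same human-style name, so their IDs are kept beside it. RNA-seq libraries were made from cardiac endothelial cells of adult fish of strain Tu, 7 days after part of the ventricle was resected. DNK fish carried 3 transgenes, namely a silent ubi:loxp-DsRed-stop-loxp-DN-xBrg1, the endothelial Cre driver kdrl:CreER, and the reporter kdrl:eGFP. Given for 3 days before resection, 4-HT activated the CreER, so that endothelial cells made a dominant-negative Xenopus Brg1. CtrlK fish, per the treatment protocol, had the same DN-xBrg1 and kdrl:eGFP transgenes and the same 4-HT without kdrl:CreER, while other labels call them untreated or wild-type siblings. Effects of CreER and of DN-xBrg1 cannot be told apart, nor can one of 4-HT, should the CtrlK fish have had none. GFP-sorted cells of about 15 pooled hearts were used, with 3 libraries a group. Whether the replicates were separate pools is not stated, so the spread behind the p-values may be technical.

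Notch receptors are single-pass membrane proteins that are activated by Delta and Jagged ligands on a neighbouring cell. Binding lets an ADAM protease and then gamma-secretase cut the receptor, and the freed intracellular domain enters the nucleus, where it joins the DNA-binding protein RBPJ and turns on target genes. Fringe enzymes add a sugar to the receptor that generally favours Delta over Jagged ligands. In blood vessels the pathway sets arterial identity and limits sprouting, and in the zebrafish ventricle Notch receptors are switched on in the endocardium after injury. Brg1 is the ATPase of SWI/SNF, which moves nucleosomes on DNA. The series title sets the question, a link between endothelial Brg1 and Notch in heart regeneration.

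The tables assigned 200646 to 227373 counts to genes in DNK libraries and 174371 to 216713 in CtrlK libraries. These were 1.47% to 1.48% of each DNK library's total and 1.08% to 1.27% of each CtrlK library's. Levels are given as raw counts or as CPM, counts scaled to 1000000 gene counts and by TMM factors, and 3 counts, taken as the floor, came to 13.1 to 15.7 CPM. The amplified cDNA had no molecular identifiers, so intervals and floors on counts cover counting error only. Transcript lengths were not used here, so levels are compared between groups and not between genes. A gene was tested where at least 3 libraries held 10 or so counts (47.2 CPM before scaling), and called at an edgeR adjusted p below 0.05 over all 3792 genes tested. Of these, 7.12% were called, 4.72% higher and 2.4% lower in DNK. An unadjusted p below 0.05 by edgeR was reached by 941 of the 3792, in either direction. kdrl, the endothelial receptor gene behind the sort, averaged 61.3 ± 9.25 CPM in DNK and 40.4 ± 9.31 CPM in CtrlK (SD, n = 3 each), and the zebrafish Brg1 gene SMARCA4 averaged 44.4 ± 15.9 CPM in DNK and 43.9 ± 16.1 CPM in CtrlK (SD, n = 3 each). In bulk RNA, fewer cells of a type and less RNA per cell cannot be told apart.

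Of the 10 genes, 6 could be tested, namely the 4 receptors and the ligands dll4 and dlc. The receptors NOTCH1 (ENSDARG00000052094) and notch2 rose in DNK, and the other 4 tested genes did not pass. By edgeR 0 of the 6 fell, as by DESeq2 and limma-voom, and 0 were lower at an unadjusted p below 0.05. Over all genes tested edgeR called 4.72% higher and 2.4% lower, so 0 lower of 6 is near the general share. The median log2 fold change of the 6 was 1.02, beside −0.07 over all genes tested. This median is a description and was not tested, since the genes were chosen with earlier results of these data known. NOTCH1 (ENSDARG00000052094) reached the count minimum in 3 DNK libraries and 1 CtrlK library, and dlc in 3 DNK libraries and 2 CtrlK libraries. notch2 reached it in 3 DNK libraries and 0 CtrlK libraries. With 3 libraries needed, each of these genes was testable only with DNK libraries, the group in which its mean was higher. These 3 genes had the 3 highest log2 fold changes of the 6 (2.23, 1.43 and 1.75 in that order), so the filter itself raises the median. The other 3 had 0.61 for NOTCH1 (ENSDARG00000103554), −0.10 for NOTCH3 and −0.25 for dll4. The libraries of both groups did not overlap for 3 of the 6 tested genes, all higher in DNK, and overlapped for the 4 genes not tested. Of all tested genes, 16.2% were separated in that direction and 14.6% in the other.

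**Figure D1:**
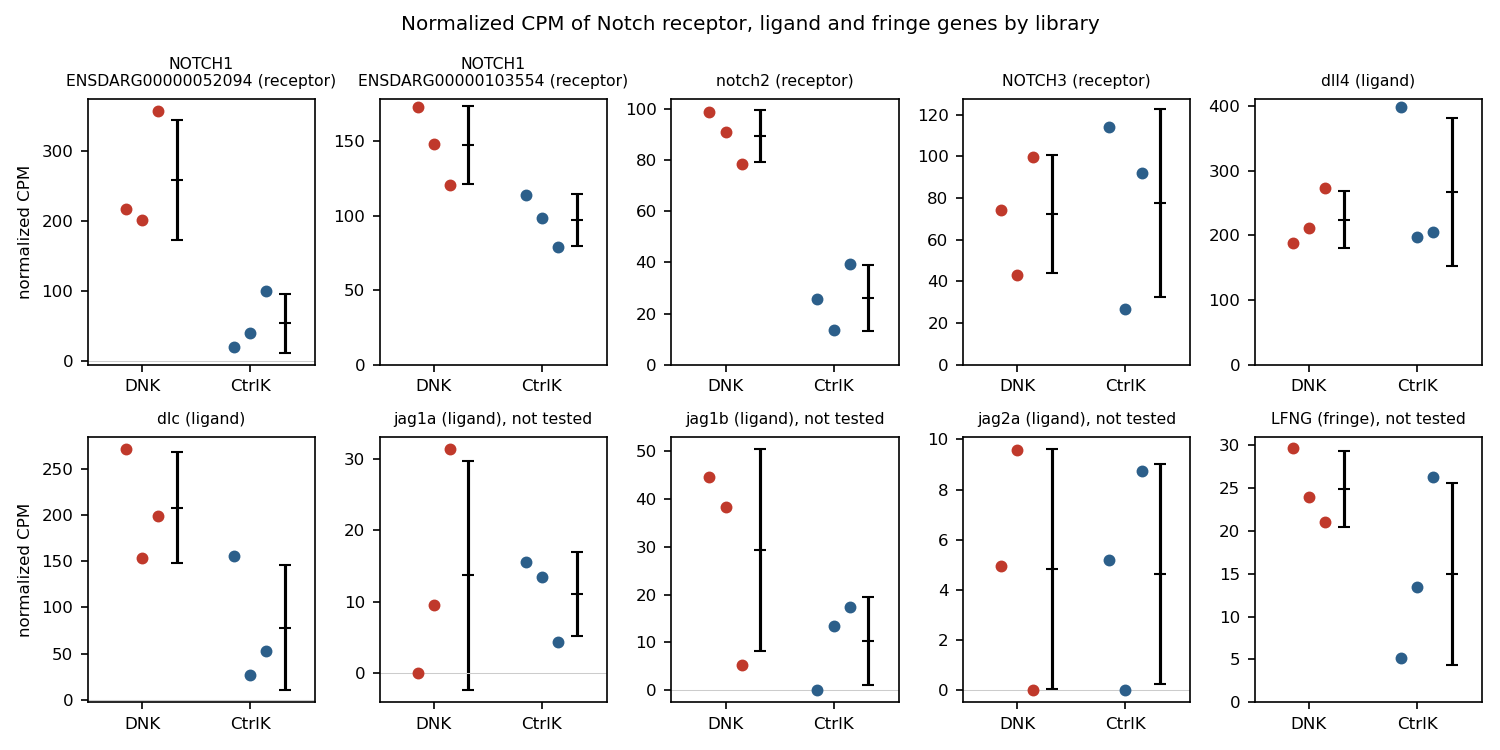
Normalized CPM of each gene in 3 DNK and 3 CtrlK libraries (points), with mean and SD (bars), each panel with its own axis. The groups are separate for both NOTCH1 copies and notch2, and overlap for the other 7 genes, of which jag1a, jag1b, jag2a and LFNG had too few counts to test.

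Receptor genes were taken first. NOTCH1 (ENSDARG00000052094), a copy of the receptor that drives arterial and endocardial Notch signalling in vertebrates, had 44, 42 and 68 counts in DNK replicates 1, 2 and 3, against 4, 9 and 23 counts in CtrlK replicates 1, 2 and 3. Each DNK library was above each CtrlK library, and CtrlK replicate 3 stood above the other CtrlK libraries. Its 23 counts (95% Poisson interval 14.6 to 34.5) lay outside the interval of the 4 counts of CtrlK replicate 1 (1.09 to 10.2), so the spread within CtrlK was larger than counting error. Scaled, the gene averaged 258 ± 85.4 CPM in DNK and 53.8 ± 41.6 CPM in CtrlK (SD, n = 3 each), a 4.68-fold rise with a log2 fold change of 2.23 ± 0.49 (SE, 95% interval 1.18 to 3.27, edgeR adjusted p = 0.0162). Leaving out CtrlK replicate 1, CtrlK replicate 2 or DNK replicate 3 ended the call (adjusted p = 0.0507, 0.0618 and 0.0688 in that order), within a range of 0.000125 to 0.988 over 16 alternatives, and leaving out CtrlK replicate 3 gave a log2 fold change of 3.06. A covariate fit, with the log ratio of non-gene to gene reads as a further term, gave a log2 fold change of −0.16 (adjusted p = 0.988). That fit called 1 gene in all, and this ratio, lower in all DNK than in all CtrlK libraries, cannot be told apart from the group.

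The second copy, NOTCH1 (ENSDARG00000103554), had 35, 31 and 23 counts in DNK replicates 1, 2 and 3, against 22, 22 and 18 counts in CtrlK replicates 1, 2 and 3. The libraries were close together within each group, and after scaling each DNK library was above each CtrlK library, by a small margin between DNK replicate 3 (121 CPM) and CtrlK replicate 1 (114 CPM). The copy averaged 147 ± 26.2 CPM in DNK and 96.9 ± 17.6 CPM in CtrlK (SD, n = 3 each). The difference did not pass (log2 fold change 0.61 ± 0.39, SE, 95% interval −0.22 to 1.43, edgeR adjusted p = 0.359). A rise of up to 1.43 on the log2 scale therefore lies within its interval, which overlaps that of the first copy.

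The copies were also compared with each other within each library, where no scaling is needed. The log2 ratio of ENSDARG00000052094 to ENSDARG00000103554 counts, with 0.5 added to each, was 0.33, 0.43 and 1.54 in DNK replicates 1, 2 and 3, against −2.32, −1.24 and 0.35 in CtrlK replicates 1, 2 and 3. The first copy thus had more counts than the second in each DNK library, and fewer in CtrlK replicates 1 and 2, while CtrlK replicate 3 lay within the DNK range. The mean log2 ratio was 0.77 ± 0.67 in DNK and −1.07 ± 1.34 in CtrlK (SD, n = 3 each), a difference of 1.84 (two-sided exact permutation p = 0.2, adjusted p = 0.4 over 2 copy pairs). It was 1.217 without CtrlK replicate 1 and 2.55 without CtrlK replicate 3, the lowest and highest values with 1 library left out. The smallest p that this exact test allows is 0.1, so it could not pass at 0.05 in this design and does not settle whether the copies changed relative to each other. The labels do not say how reads that match both copies were counted.

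notch2, which encodes a receptor that is widely expressed and in mammals acts in vascular smooth muscle and immune cells among others, had 20, 19 and 15 counts in DNK replicates 1, 2 and 3, against 5, 3 and 9 counts in CtrlK replicates 1, 2 and 3. The DNK libraries were alike and all above the CtrlK libraries, of which replicate 2 was at the floor. The gene averaged 89.5 ± 10.2 CPM in DNK and 26.2 ± 13.0 CPM in CtrlK (SD, n = 3 each), a 3.36-fold rise (log2 fold change 1.75 ± 0.49, SE, 95% interval 0.70 to 2.80, edgeR adjusted p = 0.0453). The call lay close to the threshold and was made in 5 of 16 alternatives, with adjusted p of 0.0361 to 0.143 in those other than the covariate fit (0.988). Leaving out any library other than CtrlK replicate 3 ended it, as did DESeq2 (adjusted p = 0.0876) and limma-voom (0.125).

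NOTCH3, which encodes the receptor typical of mural cells, had 15, 9 and 19 counts in DNK replicates 1, 2 and 3, against 22, 6 and 21 counts in CtrlK replicates 1, 2 and 3. The groups overlapped, and replicate 2 was the lowest library in each. The means were 72.3 ± 28.3 CPM in DNK and 77.5 ± 45.2 CPM in CtrlK (SD, n = 3 each), with a log2 fold change of −0.10 ± 0.55 (SE, edgeR adjusted p = 0.926). The 95% interval, −1.26 to 1.07, leaves room for a change of more than 2-fold either way.

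**Figure D2:**
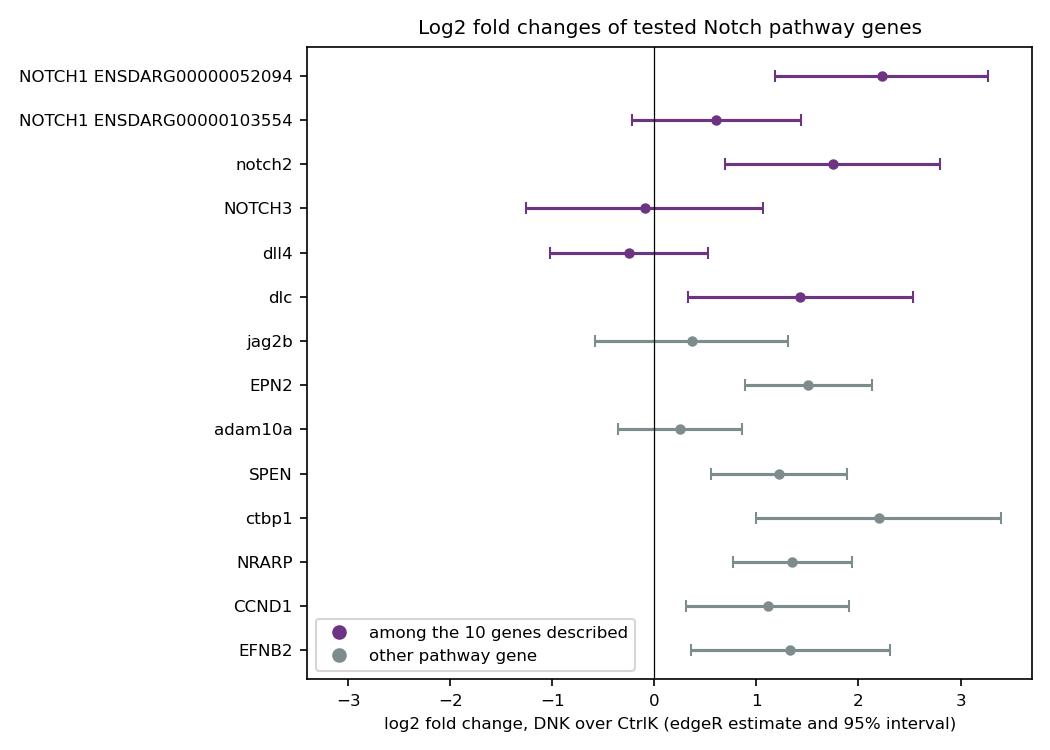
Log2 fold change of DNK over CtrlK (edgeR estimate, x axis) with its 95% interval for the 6 tested genes of the set and for the named genes of other steps of the pathway. The intervals of NOTCH1 ENSDARG00000052094, notch2 and dlc lie above 0, while those of NOTCH1 ENSDARG00000103554, NOTCH3 and dll4 include it.

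The ligand genes were described next. dll4, a Delta ligand of arterial and sprouting endothelium, had 38, 44 and 52 counts in DNK replicates 1, 2 and 3, against 77, 44 and 47 counts in CtrlK replicates 1, 2 and 3. The groups overlapped, and CtrlK replicate 1 stood above all other libraries. The gene averaged 224 ± 43.9 CPM in DNK and 267 ± 114 CPM in CtrlK (SD, n = 3 each), with a log2 fold change of −0.25 ± 0.36 (SE, 95% interval −1.02 to 0.52, edgeR adjusted p = 0.709). It was 0.15 without CtrlK replicate 1, so its sign rests on that library.

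dlc, which encodes the zebrafish Delta ligand deltaC, known from somite segmentation and from arteries of the embryo, had 55, 32 and 38 counts in DNK replicates 1, 2 and 3, against 30, 6 and 12 counts in CtrlK replicates 1, 2 and 3. CtrlK replicate 1 was again the highest CtrlK library and, after scaling, overlapped the DNK range at 155 CPM against 153 CPM in DNK replicate 2. The means were 208 ± 59.9 CPM in DNK and 78.2 ± 68.0 CPM in CtrlK (SD, n = 3 each). The log2 fold change of 1.43 ± 0.52 (SE, 95% interval 0.33 to 2.54) had an unadjusted p of 0.0145 and did not pass over all genes (edgeR adjusted p = 0.104). The gene passed without CtrlK replicate 1, where the log2 fold change was 2.37 (adjusted p = 0.0299), and with no filter on low counts (0.0355), within a range of 0.0299 to 0.841 over 16 alternatives.

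The 3 Jagged ligand genes of the set had 25 counts or fewer each over the 6 libraries. jag1a, a copy of the Jagged ligand gene JAG1, had 0, 2 and 6 counts in DNK replicates 1, 2 and 3, against 3, 3 and 1 counts in CtrlK replicates 1, 2 and 3. jag1b, the other copy, had 9, 8 and 1 counts in DNK replicates 1, 2 and 3, against 0, 3 and 4 counts in CtrlK replicates 1, 2 and 3. The groups overlapped for both copies, and DNK replicate 3 was the highest library for jag1a and the lowest DNK library for jag1b.

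Summed over libraries and scaled, the ratio of DNK to CtrlK was 1.23 for jag1a (8 counts in DNK and 7 in CtrlK, 95% counting interval 0.389 to 3.97). On the log2 scale this was 0.29, and it was −1.16 without DNK replicate 3 and 0.89 without DNK replicate 1, so that its direction rests on single libraries. The ratio was 2.76 for jag1b (18 counts in DNK and 7 in CtrlK, 95% counting interval 1.1 to 7.82), without a test across libraries. On the log2 scale this was 1.46, and with 1 library left out it ranged between 0.95 (without CtrlK replicate 1) and 2.06 (without CtrlK replicate 3). The mean log2 ratio of jag1a to jag1b counts was −1.30 ± 3.21 in DNK and 0.41 ± 2.22 in CtrlK (SD, n = 3 each), a difference of −1.71 (two-sided exact permutation p = 0.4, adjusted p = 0.4 over 2 copy pairs, smallest p possible 0.1). It was −0.23 without DNK replicate 1, −0.51 without CtrlK replicate 1 and −3.41 without DNK replicate 3, and −0.90 with 2 counts added in place of 0.5, so its size rests on single libraries and on the count added.

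jag2a, a copy of the Jagged gene JAG2, had 1, 2 and 0 counts in DNK replicates 1, 2 and 3, against 1, 0 and 2 counts in CtrlK replicates 1, 2 and 3. Each library was at or under the floor, so no ratio is given. LFNG, the lunatic fringe glycosyltransferase, had 6, 5 and 4 counts in DNK replicates 1, 2 and 3, against 1, 3 and 6 counts in CtrlK replicates 1, 2 and 3. The groups overlapped, and the summed and scaled ratio of DNK to CtrlK was 1.61 (95% counting interval 0.676 to 4.01). On the log2 scale this was 0.69, with a range of 0.33 (without CtrlK replicate 1) to 1.38 (without CtrlK replicate 3).

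Receptor and ligand genes were then set side by side as sums of counts. The 4 receptor genes together held 114, 101 and 125 counts in DNK replicates 1, 2 and 3, against 53, 40 and 71 counts in CtrlK replicates 1, 2 and 3. The 5 ligand genes together held 103, 88 and 97 counts in DNK replicates 1, 2 and 3, against 111, 56 and 66 counts in CtrlK replicates 1, 2 and 3. Summed receptor levels were separate between the groups, at 567 ± 86.1 CPM in DNK and 254 ± 68.0 CPM in CtrlK, while summed ligand levels overlapped, at 480 ± 50.7 CPM in DNK and 371 ± 177 CPM in CtrlK (SD, n = 3 each).

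The log2 ratio of receptor to ligand counts was 0.15, 0.20 and 0.36 in DNK replicates 1, 2 and 3, against −1.06, −0.48 and 0.10 in CtrlK replicates 1, 2 and 3. Each DNK library was above each CtrlK library, CtrlK replicate 3 by little, and the libraries were closer together in DNK. The mean difference between DNK and CtrlK was 0.71, a description with no test since it is a score over chosen genes. It was 0.19 without NOTCH1 (ENSDARG00000052094) and −0.25 without dll4, so it rests on these 2 genes. The ligand gene jag2b, described below, is not in the ligand sums (50 counts in DNK and 42 in CtrlK).

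**Figure D3:**
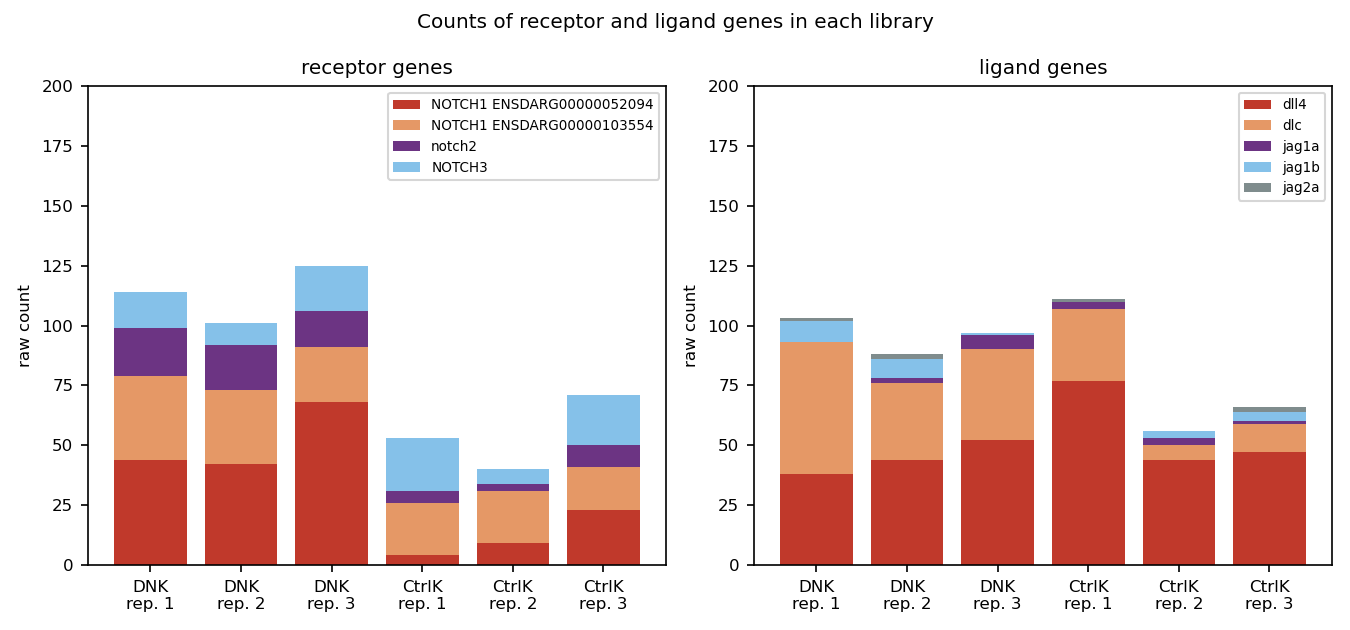
Raw counts (y axis) of receptor genes (left) and ligand genes (right) stacked by gene in each library, with DNK libraries left of CtrlK libraries. NOTCH1 ENSDARG00000052094 holds 42 to 68 receptor counts in DNK and 4 to 23 in CtrlK, and dlc holds 32 to 55 ligand counts in DNK and 6 to 30 in CtrlK.

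Within the receptor counts, NOTCH1 (ENSDARG00000052094) held 38.6%, 41.6% and 54.4% in DNK replicates 1, 2 and 3, against 7.55%, 22.5% and 32.4% in CtrlK replicates 1, 2 and 3. The Wilson 95% intervals of DNK replicate 1 (30.2% to 47.8%) and CtrlK replicate 3 (22.7% to 43.9%) overlapped, although the shares themselves did not. NOTCH3 held 8.91% to 15.2% of receptor counts in DNK and 15.0% to 41.5% in CtrlK, which overlapped. The second NOTCH1 copy held 18.4% to 30.7% in DNK and 25.4% to 55.0% in CtrlK. For notch2 the shares were 12.0% to 18.8% in DNK and 7.5% to 12.7% in CtrlK, and both genes overlapped. Since the shares of a library add up to a whole, lower mean shares of NOTCH3 and the second NOTCH1 copy go with the higher share of the first copy. Neither the NOTCH3 level nor that of the second NOTCH1 copy passed the test.

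Within the ligand counts, dlc held 53.4%, 36.4% and 39.2% in DNK replicates 1, 2 and 3, against 27.0%, 10.7% and 18.2% in CtrlK replicates 1, 2 and 3. dll4 held 36.9% to 53.6% in DNK libraries, against 69.4% to 78.6% in CtrlK libraries. The groups were separate for both genes. Since these shares add up to a whole and the 2 genes held most ligand counts, the 2 separations are not independent results. The levels of both genes overlapped between the groups and did not pass (edgeR adjusted p = 0.709 for dll4 and 0.104 for dlc). The log2 ratio of dlc to dll4, chosen after the values were seen and not tested, averaged −0.12 ± 0.56 in DNK and −2.02 ± 0.72 in CtrlK (SD, n = 3 each). Most ligand counts were thus of dll4 in each CtrlK library, while dlc held a larger part in the DNK libraries. These are shares of counts, not of transcripts per length.

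**Figure D4:**
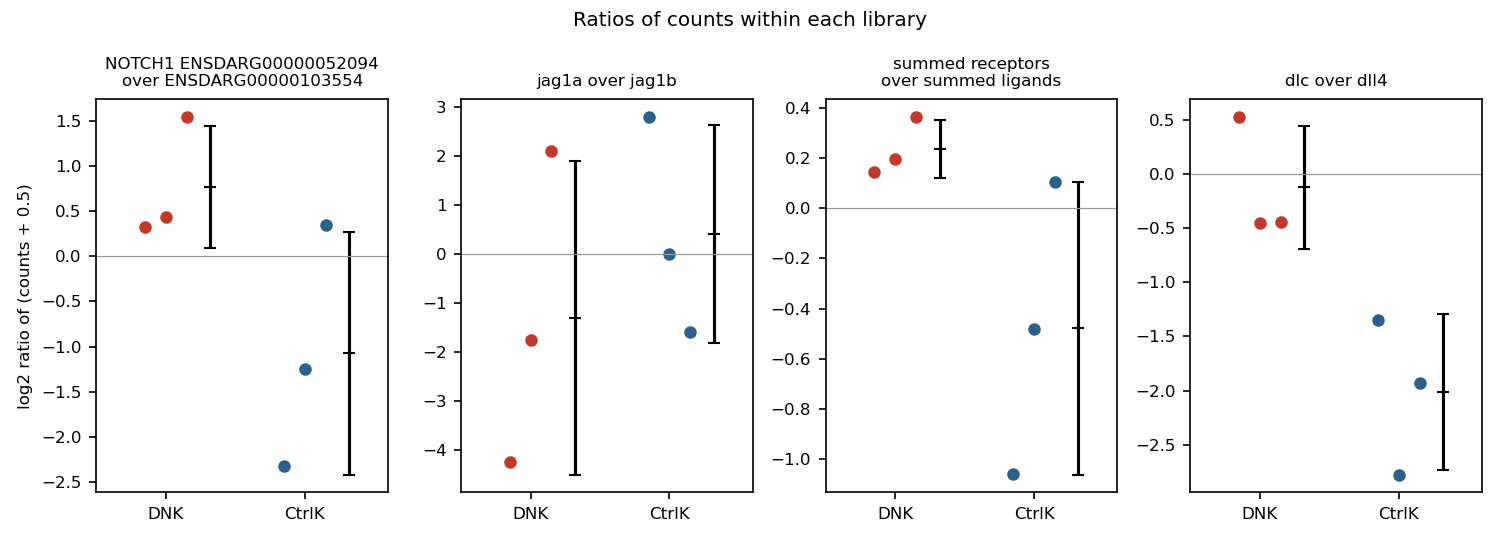
Log2 ratios of counts within each library (points; y axis, 0.5 added to each count) for the NOTCH1 copies, the jag1 copies, receptors over ligands, and dlc over dll4, with mean and SD (bars). DNK and CtrlK are separate for receptors over ligands and for dlc over dll4, overlap at CtrlK replicate 3 for the NOTCH1 copies, and overlap widely for the jag1 copies.

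Other steps of the pathway were read from lists matched to 72 gene IDs, of which 20 could be tested. Among these 4 rose by edgeR, beside 4.72% of all genes tested, the share against which the count of each list below is also read. DESeq2 called 4 higher and limma-voom 3, and 0 fell by any of the 3 tools (0 lower at an unadjusted p below 0.05 by edgeR). By edgeR 2.4% of all genes tested were called lower, so 0 lower of 20 is near the general share. The median log2 fold change was 0.39, beside −0.07 over all genes tested, and 12 of the 20 had positive values, as had 46.9% of all genes tested. Among the other ligand and fringe genes 1 of 6 could be tested. This was jag2b, a further JAG2 copy, with 83.7 ± 21.3 CPM in DNK and 64.6 ± 6.82 CPM in CtrlK (SD, n = 3 each, log2 fold change 0.36 ± 0.44, SE, edgeR adjusted p = 0.643).

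For ligand endocytosis and modification 3 of 10 IDs were tested and 1 rose. EPN2, an epsin, a class of endocytic adaptors that ligand-bearing cells need to pull on the receptor, had 249, 322 and 203 counts in DNK replicates 1, 2 and 3, against 82, 78 and 131 counts in CtrlK replicates 1, 2 and 3. The groups were far apart, and the rise was 2.85-fold (log2 fold change 1.51 ± 0.29, SE, edgeR adjusted p = 0.00986), called in all alternatives other than the covariate fit (0.882).

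For receptor processing 3 of 10 IDs were tested and 0 passed by edgeR, DESeq2 or limma-voom, with 0 at an unadjusted p below 0.05 by edgeR. adam10a, an ADAM protease, averaged 745 ± 145 CPM in DNK and 626 ± 122 CPM in CtrlK (SD, n = 3 each, log2 fold change 0.25 ± 0.29, SE, edgeR adjusted p = 0.619).

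In the nuclear complex 6 of 13 IDs were tested and 2 rose, both with roles in repression. SPEN (ENSDARG00000074245), a corepressor that binds RBPJ when Notch is off, rose 2.33-fold to 517 ± 48.5 CPM in DNK, against 222 ± 49.8 CPM in CtrlK (SD, n = 3 each, edgeR adjusted p = 0.0292). ctbp1 (ENSDARG00000057007), a C-terminal binding protein corepressor, had 76, 18 and 31 counts in DNK replicates 1, 2 and 3, against 9, 5 and 15 counts in CtrlK replicates 1, 2 and 3. CtrlK replicate 2 was below the count minimum, so ctbp1 too was testable only with DNK libraries, the group in which it was high. Its rise was 4.59-fold (edgeR adjusted p = 0.0292) and was led by DNK replicate 1, without which the call was lost (log2 fold change 1.45, adjusted p = 0.180). It was also lost without CtrlK replicates 1 or 2 (0.0828 and 0.0953) and with limma-voom (0.0954). The SPEN call was lost with gene counts per library only (adjusted p = 0.0617) and when any library other than CtrlK replicate 3 was left out (adjusted p = 0.0563 to 0.109). Both RBPJ copies were below the test minimum, with 12 and 21 counts in DNK, against 7 and 16 in CtrlK.

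Among negative regulators, which mostly act on the receptor or its intracellular domain, 2 of 12 IDs were tested and 1 rose. Among target genes 5 of 21 IDs were tested and 0 passed by edgeR, DESeq2 or limma-voom, with 3 at an unadjusted p below 0.05 by edgeR. Of all 3792 genes tested, 941 were at that unadjusted threshold. The targets HEY1 (4 counts in DNK and 7 in CtrlK), HEY2 (11 and 7) and heyl (3 and 12) had too few counts to test, and 7 her genes had 0 counts. NRARP (ENSDARG00000091419), a feedback inhibitor that Notch itself induces, rose 2.55-fold to 2128 ± 156 CPM in DNK, against 834 ± 259 CPM in CtrlK (SD, n = 3 each, edgeR adjusted p = 0.0118, and 0.0618 without CtrlK replicate 2 or 0.0559 without DNK replicate 1). For the target CCND1, a cyclin of the G1 phase, the log2 fold change was 1.11 (edgeR adjusted p = 0.0830). For the target EFNB2 (ENSDARG00000020164), the arterial ephrin, it was 1.33 (edgeR adjusted p = 0.0884), and the groups overlapped.

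Summed levels of cell type markers were separate between the groups for 5 lists and overlapped for 3. Of single tested genes, 16.2% were separate and higher in DNK and 14.6% separate and lower. No such share was computed for sums of lists, so the count of lists is a description only. Endothelial markers summed to 1987 to 2178 CPM in DNK libraries, against 880 to 1599 CPM in CtrlK libraries, and 1 of 7 tested rose, namely vwf, a clotting factor gene of endothelium (edgeR adjusted p = 0.0178, and 0.0526 to 0.0713 when any library other than DNK replicate 2 or CtrlK replicate 3 was left out). Summed levels were also higher in each DNK library for cardiomyocyte markers (939 to 975 CPM in DNK and 505 to 735 CPM in CtrlK, 1 of 5 tested rose, atp2a2a). This calcium pump gene had 15, 11 and 17 counts in DNK replicates 1, 2 and 3, against 4, 5 and 2 counts in CtrlK replicates 1, 2 and 3, so it was testable only through the group in which it was high. Its call (edgeR adjusted p = 0.0453) was lost in 12 of 16 alternatives, among them each left-out library, DESeq2 (0.0782) and limma-voom (0.171), by which 0 cardiomyocyte markers were called. Levels were higher for fibroblast and mural markers (2873 to 3733 CPM in DNK and 1693 to 2307 CPM in CtrlK, 2 of 9 rose, COL1A2 and PDGFRB) and also for myeloid markers (1437 to 1618 CPM in DNK and 564 to 1189 CPM in CtrlK, 0 of 5 called by edgeR, DESeq2 or limma-voom, 3 at an unadjusted p below 0.05). That unadjusted threshold was reached by 941 of all 3792 genes tested. The lymphocyte marker sum was lower (129 to 188 CPM in DNK and 366 to 466 CPM in CtrlK), with 1 of 7 IDs tested, cd8a, which fell. cd8a alone had 110 to 153 CPM in DNK and 299 to 393 CPM in CtrlK, so this sum mostly repeats the result of that gene. The calls of COL1A2 and PDGFRB each ended when 1 of 4 libraries was left out, namely DNK replicate 1, CtrlK replicate 1, CtrlK replicate 2 and, for COL1A2, DNK replicate 2 or, for PDGFRB, DNK replicate 3 (edgeR adjusted p = 0.0621 to 0.0902 for COL1A2 and 0.0544 to 0.0936 for PDGFRB). The cd8a call was lost without CtrlK replicate 1 or any DNK library and with no filter (0.0613 to 0.0840). Endocardial markers other than NOTCH1 overlapped (372 to 416 CPM in DNK and 302 to 380 CPM in CtrlK, 0 of 3 called by edgeR, DESeq2 or limma-voom, 0 at an unadjusted p below 0.05), as did thrombocyte markers (340 to 561 CPM in DNK and 463 to 781 CPM in CtrlK) and erythroid markers (73.4 to 144 CPM in DNK and 44.7 to 78.7 CPM in CtrlK). lyz, the lysozyme gene of neutrophils and macrophages, had 0 counts in all libraries, as did cd79a of B cells, the globin gene hbaa2, a CLDN5 copy of the endothelial list and a TNNT2 copy of the cardiomyocyte list. The part of these cells in the result was not tested. Both POSTN copies were on the endocardial list and also on the fibroblast and mural list, so these lists are not independent.

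Set against endothelial marker counts, a measure chosen after the values were seen, NOTCH1 (ENSDARG00000052094) had 101, 92.3 and 179 counts per 1000 marker counts in DNK replicates 1, 2 and 3, against 23.5, 36.4 and 62.8 in CtrlK replicates 1, 2 and 3. notch2 had 45.9, 41.8 and 39.6 in DNK replicates 1, 2 and 3, against 29.4, 12.1 and 24.6 in CtrlK replicates 1, 2 and 3. For these 2 receptors the groups were separate on this scale too, and for the other 4 tested genes they overlapped. The mean of the second NOTCH1 copy was here lower in DNK, at 69.7 ± 9.89 in DNK and 89.2 ± 40.1 in CtrlK (SD, n = 3 each). Means were also lower in DNK for NOTCH3, at 34.8 ± 15.2 in DNK and 70.4 ± 53.7 in CtrlK, and for dll4, at 107 ± 26.6 in DNK and 253 ± 175 in CtrlK. For dlc the mean was 98.9 ± 27.9 in DNK and 77.8 ± 85.5 in CtrlK. These values were not tested. CtrlK replicate 3, the CtrlK library with the most NOTCH1 (ENSDARG00000052094) and notch2, also had the largest share of reads assigned to genes in CtrlK (1.27%) and 366 endothelial marker counts, against 170 and 247 in CtrlK replicates 1 and 2. The other 4 tested genes had their highest CtrlK level in replicate 1. There dll4 had 398 CPM, dlc 155 CPM, and NOTCH3 and the second NOTCH1 copy 114 CPM each. A relation to marker counts was not tested.

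The genes whose log2 CPM followed the called receptors most closely over the 6 libraries were listed as a description. For NOTCH1 (ENSDARG00000052094) these were PIK3CB (Pearson r = 0.998), prodha (0.994), ets2 (0.993), VAT1 (0.989) and cmlc1 (0.989). For notch2 they were JAK1 (r = 0.998), MAFK (0.997), PLEKHO2 (0.997), FOSL1 (0.993) and actb2 (0.993). These are the highest of the correlations with all other genes tested, so values near 1 follow in part from that choice. In the NOTCH1 list only PIK3CB was called (edgeR adjusted p = 0.0144, others 0.0569 to 0.206), and cmlc1 is a cardiomyocyte marker listed above. All genes of the notch2 list were called (edgeR adjusted p = 0.0168 to 0.0394). The 6 points share library, depth and group with every other gene, so no p is given.

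**Figure D5:**
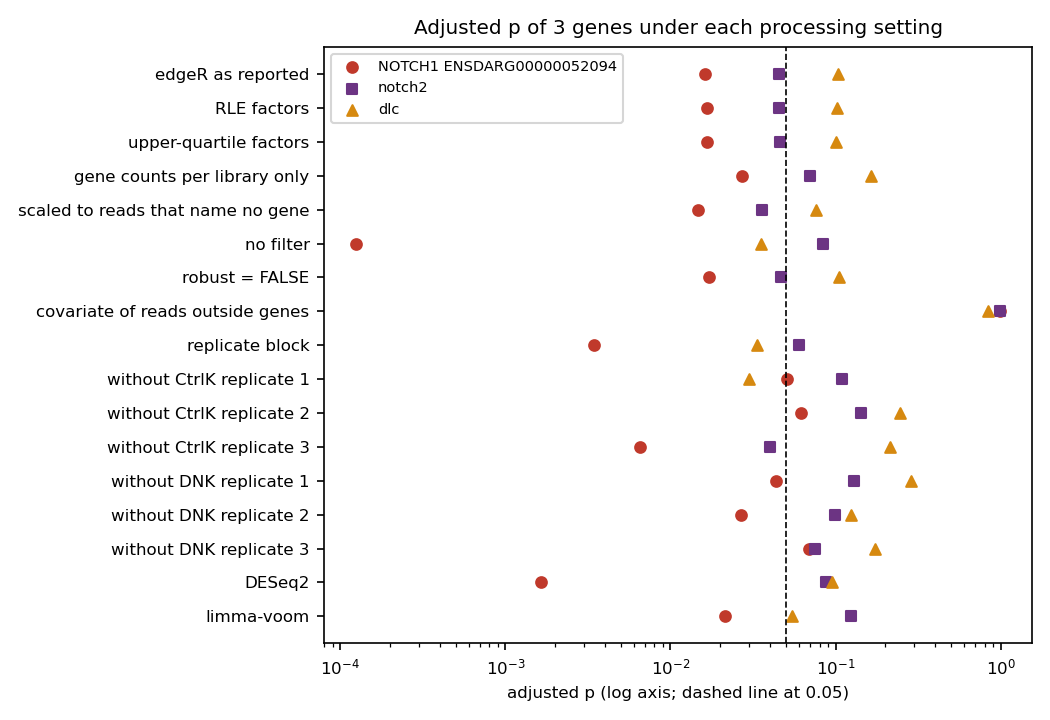
Adjusted p (x axis, log scale) of NOTCH1 ENSDARG00000052094, notch2 and dlc under the reported edgeR test and each alternative in which they could be fitted, with a dashed line at the 0.05 threshold. NOTCH1 ENSDARG00000052094 lies below the line in 12 of 16 alternatives, notch2 in 5 and dlc in 3, and none of the 3 does in the covariate fit.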

How the data were processed

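Per the labels' protocols, cDNA from RNA of GFP-sorted ventricular cells was amplified with MALBAC. The tools, per the submitters' processing notes, were HISAT2 2.1.0, Trim Galore 0.6.0, DESeq2 1.22.2 and HTSeq 0.6.1, and the build GRCz11, with no role or order stated. Strand setting and annotation are not stated there. The authors deposited raw counts per Ensembl gene ID. The 5 rows that name no gene held 98.5% to 98.9% of each total (reads of low alignment quality 58.0% to 59.2%) and were left out.

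Groups came from sample titles. Genes kept by filterByExpr were tested with edgeR 4.0.16 (TMM, robust quasi-likelihood fit, R 4.3.3) with Benjamini-Hochberg adjustment, after a test on simulated data. Intervals come from the SE and the moderated degrees of freedom. CPM uses all gene counts times the TMM factor. The alternatives (DESeq2 1.42.0, limma-voom 3.58.1, other scalings, filters, left-out libraries) used the same genes except where the filter changed. Replicates differed beyond sampling noise (chi-square per degree of freedom 3.83 to 5.83). Replicate numbers did not pair libraries (correlations of deviations −0.11, −0.00 and −0.04). Genes and lists were chosen with earlier results of these data known. All 10 genes are named, and from each list the called genes or, with none, the 2 of smallest p, of which 1 result is not reported here; the symbol DLD was dropped since it names an enzyme. Ratios were tested by exact permutation (scipy 1.17.1). Sequences were not used here.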

Additional observations from a re-analysis of the deposited data

How the results depend on the processing

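The count of genes called, 270 as reported (179 higher, 91 lower), was 66 to 285 when 1 library was left out and 1 with the covariate of reads outside genes. The share of calls higher in DNK, 66.3%, was 42.5% with gene counts per library only and 79.4% scaled to reads that name no gene, scalings that put the median log2 fold change of all genes at −0.30 and 0.07 in that order, beside −0.07 as reported. Of the 10 Notch genes, 2 as reported, the number called was 0 to 2 with 1 library left out, 0 with the covariate, 0 with at least 50 counts in 3 libraries (where none of the 10 was tested), and 1 each with gene counts per library only, DESeq2 and limma-voom. Of the other pathway genes, 4 as reported, it was 1 to 5 with 1 library left out, 0 with the covariate, 3 each with gene counts per library only, limma-voom and at least 50 counts in 3 libraries, and 6 with no filter.

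The log2 fold change of NOTCH1 ENSDARG00000052094 was 1.86 to 3.06 with 1 library left out and −0.16 with the covariate. That of notch2 was 1.43 to 2.20 with 1 library left out, and its call was lost at 1.53 with gene counts per library only, 1.86 with no filter, 0.19 with the covariate, 1.77 with DESeq2 and 1.84 with limma-voom. For NOTCH3 the sign changed at 0.029 scaled to reads that name no gene, 0.028 with no filter, 0.17 with limma-voom, and within −0.49 to 0.27 with 1 library left out. For dll4 it changed at 0.44 with the covariate and within −0.41 to 0.15 with 1 library left out. dlc passed at 1.56 with no filter, and ranged from 1.03 to 2.37 with 1 library left out. The difference in log2 ratio was 1.217 to 2.55 for the NOTCH1 copies and −3.41 to −0.23 for the jag1 copies with 1 library left out. The difference in log2 receptor to ligand ratio moved to 0.19 without the most abundant receptor gene and −0.25 without the most abundant ligand gene. With the replicate block, whose numbers did not pair the libraries, 252 genes were called, notch2 no longer passed (log2 fold change 1.79, adjusted p = 0.0596) and dlc did (1.64, adjusted p = 0.0333). The causes of these changes were not tested. jag1a, jag1b, jag2a and LFNG were below the test minimum, with 25 counts or fewer each over the 6 libraries. Whether low depth or low expression lies behind this was not tested.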
